A study of Mus musculus with 23 samples.

Results

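The genes described here are the 7 that encode the iRhoms, the ADAM sheddases and the ErbB receptors of the epidermal growth factor pathway: Rhbdf2, Rhbdf1, Adam17, Adam10, Egfr, Erbb2 and Erbb3. They were chosen by symbol, as the rows of the deposited expression table annotated to these names, and all 7 were found among 19938 genes tested. The study profiled ear pinna of female 4-week-old mice with Affymetrix Mouse Gene 1.0 ST microarrays, 23 in all. Wild-type mice were C57BL/6J with the genotype Rhbdf2+/+ (12 arrays), and cub mice were B6.Cg-Rhbdf2cub/J with the genotype Rhbdf2cub/cub (11 arrays). Ears received a 2-mm hole, and its 1-mm rim was cut out with a 3-mm biopsy punch 15 min, 2 h or 24 h later, while the 0 h ears carried the label control. No biopsy size was recorded for the 0 h ears, so the wounding comparisons may also differ in the piece of ear taken. Each group held 3 arrays, except cub at 15 min with 2, and the labels give each array as a biological replicate. The question was how the genotypes differ before and after wounding.

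iRhoms are rhomboid-like proteins without protease activity that escort the metalloprotease ADAM17 out of the endoplasmic reticulum and stay bound to it at the cell surface. ADAM17, and for some substrates ADAM10, cuts membrane-anchored ligands such as HB-EGF, TGF-alpha and epigen, and the released ligands bind ErbB receptor tyrosine kinases on keratinocytes. The cub (curly bare) allele is a spontaneous deletion in Rhbdf2 that removes coding exons of the cytoplasmic amino-terminal part of iRhom2. It is known for hairlessness and for fast closure of ear holes in homozygous mice.

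Egfr and Erbb2 moved in opposite directions 24 h after wounding in both genotypes, so the 250 bases upstream of the annotated start of each are shown (RefSeq, GRCm38.p6). Egfr lies at chr11:16751953-16752202 and Erbb2 at chr11:98412234-98412483, both on the plus strand. Capitals mark a GC box (GGGCGG or its complement CCGCCC) or a CCAAT box (CCAAT or its complement ATTGG).
Egfr: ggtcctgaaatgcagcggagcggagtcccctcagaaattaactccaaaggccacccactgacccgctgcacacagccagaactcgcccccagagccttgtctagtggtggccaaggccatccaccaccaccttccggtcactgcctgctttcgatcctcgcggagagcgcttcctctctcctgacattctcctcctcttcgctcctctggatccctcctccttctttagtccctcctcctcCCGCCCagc
Erbb2: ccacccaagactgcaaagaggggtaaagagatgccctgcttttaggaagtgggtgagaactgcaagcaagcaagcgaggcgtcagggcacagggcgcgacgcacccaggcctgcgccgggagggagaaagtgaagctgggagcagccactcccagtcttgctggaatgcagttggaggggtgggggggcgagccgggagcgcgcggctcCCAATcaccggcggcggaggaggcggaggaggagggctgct
The Egfr stretch held 1 GC box and 0 CCAAT boxes, and the Erbb2 stretch held 0 GC boxes and 1 CCAAT box. A GC box stood in 32.7% and a CCAAT box in 33.8% of 32851 RefSeq windows of this length. Neither stretch held, on either strand, a TATA box (TATAAA, in 12.4% of the windows), an AP-1 site (TGANTCA, in 6.75%) or an AP-2 site (GCCNNNGGC, in 13.7%). The G and C content was 60.8% for Egfr and 66.0% for Erbb2, against a median of 52.4% over all windows. Windows were found for 4 of the 7 genes, the others being Adam17 and Adam10. The Adam17 window held 1 GC box and 0 CCAAT boxes, the same as Egfr, although Adam17 fell at 24 h in both genotypes. The Adam10 window held 3 GC boxes and 2 CCAAT boxes, and Adam10 passed no wounding change. A match is only a run of letters, no binding was measured, and a link between boxes and direction was not tested.

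Values are log2 levels from RMA, so 1 unit is a doubling, and array medians ran from 6.37 to 6.46. Precision is limited by how many arrays each group had. Differences are given with their standard error from limma, and a gene passed where its p-value, adjusted by the Benjamini-Hochberg method over all genes of a comparison, was below 0.05. The epidermis was visible in its markers: the summed level of 14 keratinocyte markers lay between 15.88 and 16.05 on the log2 scale in every array. The tissue was also mixed, with muscle, cartilage, fat and leukocyte markers, and in such bulk samples fewer cells of a type and less RNA per cell cannot be told apart.

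Across the 14 comparisons, 20 of 98 differences of the 7 genes passed, and most of them belonged to the 24 h step. Before wounding, cub exceeded wild type in 1 of 7 genes, Rhbdf2 (5.25% of all genes were called in this comparison). At 15 min 0 of 7 passed between the genotypes by limma (3.45% of all genes were called). An unadjusted p under 0.05 was found for 2 of 7, Rhbdf2 and Erbb2, and for 4534 of all 19938 genes. At 2 h 1 gene, Adam10, was higher in cub (4.41%), and at 24 h 1 gene, Rhbdf2, was lower (5.68%). Averaged over the 4 times, Rhbdf1 and Adam10 were higher in cub (2 of 7 genes, 18.3% of all genes).

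Wounding had no detected effect on the 7 genes at 15 min. In wild type 0 of 7 passed by limma (0.0351% of all genes were called), and 0 had an unadjusted p under 0.05, against 1826 of all 19938 genes. In cub 0 of 7 passed (0.0251%). There 2 of 7, Adam17 and Adam10, had an unadjusted p under 0.05, against 2905 of all 19938 genes. At 2 h Rhbdf2 rose and Adam17 fell in wild type (2 of 7, 7.97%), and Erbb2 fell in cub (1 of 7, 11.9%). At 24 h Rhbdf1, Adam17, Erbb2 and Erbb3 fell and Egfr rose in wild type (5 of 7, 42.8%). In cub the same 5 genes moved the same way and Rhbdf2 fell as well (6 of 7, 46.0%). Since a large share of all genes was called at 24 h in each genotype, calls there are not particular to these genes.

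The interaction is the wounding change in cub minus that in wild type. At 15 min 0 of 7 genes passed by limma (0.0% of all genes), and none of them had an unadjusted p under 0.05, against 1740 of all 19938 genes. At 2 h 0 of 7 passed (0.13%). There 2 of 7, Rhbdf2 and Erbb2, had an unadjusted p under 0.05, against 2029 of all 19938 genes. At 24 h 1 of 7, Rhbdf2, passed (1.0%).

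**Figure D1:**
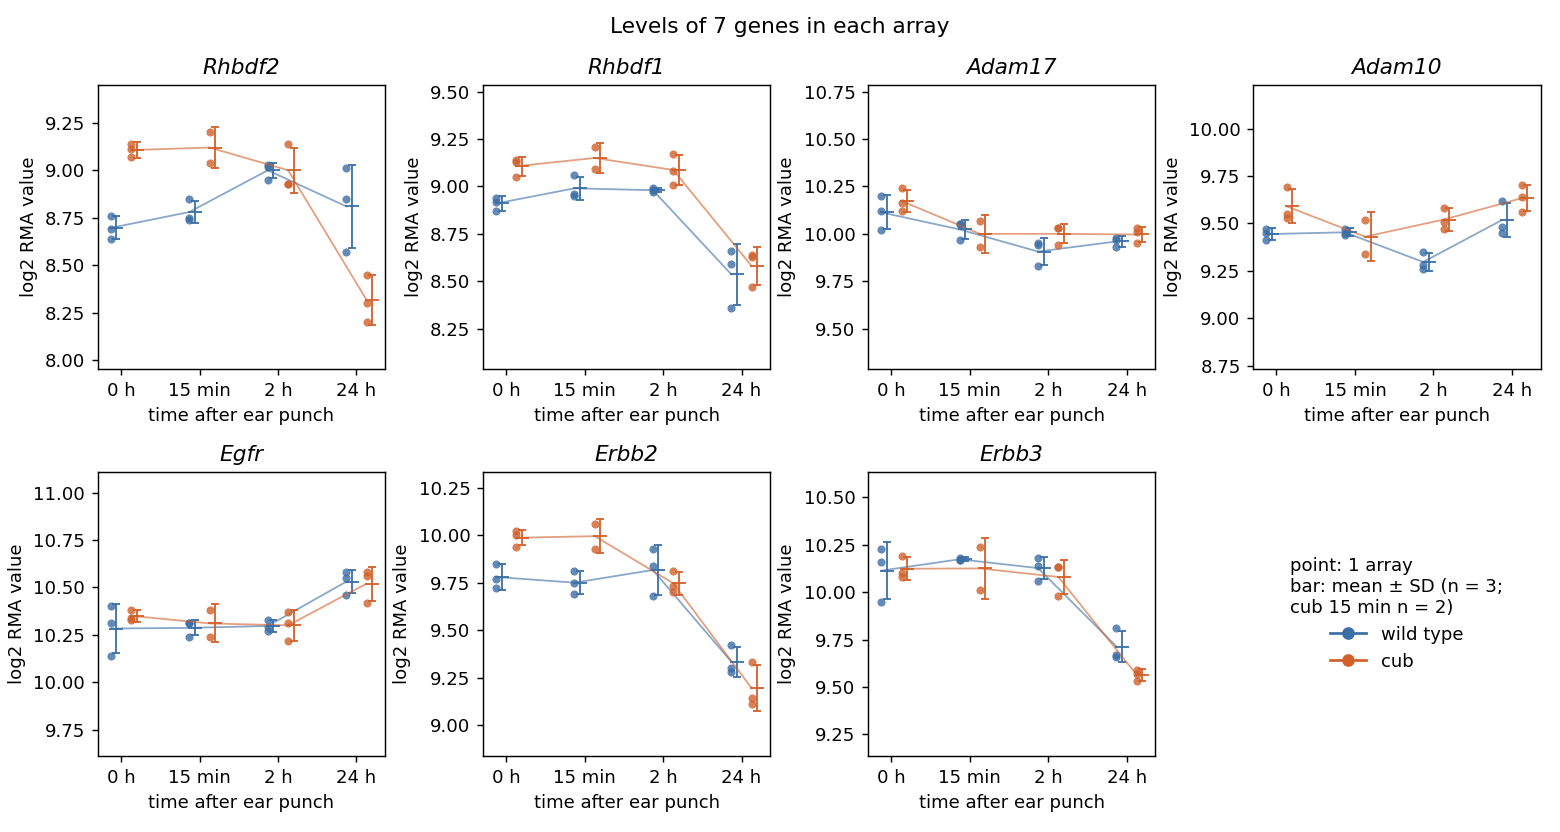
Log2 RMA values of the 7 genes (y axis, each panel spanning the same 1.5 log2 units) against time after the ear punch (x axis), for wild type and cub. Points are single arrays and bars are means with SD. For Rhbdf2 cub lies above wild type at 0 h and below it at 24 h, without overlap at either time. The means of Erbb2, Erbb3 and Egfr also change order between these times, but their arrays overlap at 0 h, at 24 h or at both. Erbb2, Erbb3 and Rhbdf1 step down at 24 h in both genotypes.

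Rhbdf2, which encodes iRhom2 and carries the cub deletion, followed a different course in each genotype. In wild type the 3 arrays stood at 8.76, 8.69 and 8.64 at 0 h, at 8.74, 8.75 and 8.85 at 15 min, at 9.03, 8.95 and 9.02 at 2 h, and at 8.57, 8.85 and 9.01 at 24 h. The 2 h arrays lay above every 0 h array, whereas the 24 h arrays were spread across the ranges of the other times. In cub they stood at 9.14, 9.07 and 9.11 at 0 h, at 9.20 and 9.04 at 15 min, at 9.14, 8.93 and 8.93 at 2 h, and at 8.45, 8.30 and 8.20 at 24 h. All cub arrays at 24 h lay below every other array of either genotype.

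Rhbdf2 was higher in cub by 0.41 ± 0.09 at 0 h (limma, adjusted p = 0.00883), a call that held in all 14 alternatives. At 15 min the difference was 0.34 ± 0.10 without overlap, short of the threshold (adjusted p = 0.0574), and it passed in 3 of 13 alternatives. The wild-type rise at 2 h was 0.30 ± 0.09 (adjusted p = 0.0354), and leaving out any 1 of the 6 arrays ended the call (adjusted p up to 0.126). Cub moved by −0.11 ± 0.09 over the same interval (adjusted p = 0.526). Beside the 2 h calls for Rhbdf2 and Adam17 in wild type, 9 of 11 neutrophil, 3 of 14 keratinocyte and 1 of 12 macrophage markers were higher, and their part was not tested. The interaction at 2 h was −0.41 ± 0.12 and did not pass (adjusted p = 0.213), except with array weights (adjusted p = 0.0267).

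At 24 h the wild-type change was 0.11 ± 0.09 (adjusted p = 0.345). It rested on the lowest wild-type array, since without replicate 1 it became 0.23 ± 0.08 and passed (adjusted p = 0.0237). The level was lower in cub than in wild type (adjusted p = 0.00218), but not past the threshold when the 6 arrays were fitted alone (adjusted p = 0.0729). The fall in cub was 1.73-fold (adjusted p = 1.3e-07) and held in all 14 alternatives. In size it ranked 1900 of 19938 genes, while the interaction of −0.90 ± 0.12 ranked 37. The interaction held in all 20 alternatives, with adjusted p values from 9.1e-05 to 0.0123.

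Where the Rhbdf2 probes lie relative to the deleted exons was not examined. Its level is therefore no firm check of the genotype labels, and a probe set that lies partly in deleted exons would measure only part of the transcript in cub. At 0 h, where Rhbdf2 was higher in cub, 3 of 12 macrophage, 1 of 10 fibroblast and 1 of 14 keratinocyte markers (Krt1, by 1.14) were also higher. Of 8 sebaceous gland markers 2 were higher and 2 lower, and of 8 cartilage markers 1 was higher and 1 lower. At 24 h, where Rhbdf2 was lower, 3 of 8 sebaceous gland markers were lower in cub. Higher were 3 of 10 fibroblast, 2 of 11 neutrophil, 2 of 11 skeletal muscle and 1 of 14 keratinocyte markers (Krt1, by 0.43). Their part in the Rhbdf2 result was not tested.

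Rhbdf1 encodes iRhom1, the second iRhom, which can take over ADAM17 trafficking in many tissues. Wild-type arrays stood at 8.94, 8.87 and 8.92 at 0 h, at 8.95, 8.96 and 9.06 at 15 min, at 8.98, 8.97 and 8.99 at 2 h, and at 8.36, 8.66 and 8.59 at 24 h. Cub arrays stood at 9.13, 9.14 and 9.05 at 0 h, at 9.21 and 9.09 at 15 min, at 9.17, 9.08 and 9.01 at 2 h, and at 8.63, 8.64 and 8.47 at 24 h. Cub lay above wild type without overlap at 0 h, 15 min and 2 h, and the genotypes overlapped at 24 h.

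No single time passed for the genotype difference in Rhbdf1. At 0 h it was 0.20 ± 0.07 (adjusted p = 0.105), and it passed there only with quantile normalization or array weights. The average over the 4 times, 0.13 ± 0.04, passed (adjusted p = 0.0159) and did so in all 31 alternatives. Beside it, 8 of 12 macrophage, 7 of 10 fibroblast and 5 of 11 neutrophil markers were higher in cub. So were 2 of 8 sebaceous gland, 2 of 8 cartilage, 1 of 14 keratinocyte, 1 of 11 skeletal muscle and 1 of 8 melanocyte and Schwann cell markers. Lower were 5 of 8 sebaceous gland, 2 of 8 cartilage and 1 of 14 keratinocyte markers, and the part of these cells was not tested. At 24 h Rhbdf1 fell by 0.37 ± 0.07 in wild type (adjusted p = 0.000117) and by 0.53 ± 0.07 in cub (adjusted p = 1.32e-06). Both calls held in all 14 alternatives, and the interaction of −0.15 ± 0.10 did not pass (adjusted p = 0.622). In contrast to Rhbdf2, this iRhom gene thus fell in both genotypes.

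Adam17 encodes the sheddase of TNF and of most EGFR ligands. In wild type it stood at 10.20, 10.12 and 10.02 at 0 h, at 10.05, 9.97 and 10.05 at 15 min, at 9.94, 9.83 and 9.95 at 2 h, and at 9.97, 9.98 and 9.93 at 24 h. In cub it stood at 10.16, 10.24 and 10.12 at 0 h, at 10.07 and 9.93 at 15 min, at 10.03, 9.94 and 10.03 at 2 h, and at 10.03, 9.95 and 10.01 at 24 h. The 0 h arrays were the highest of each genotype, with overlap at 15 min in wild type only, and the genotypes overlapped at every time.

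Its changes were small. In wild type Adam17 fell by 0.21 ± 0.06 at 2 h (adjusted p = 0.0274) and by 0.15 ± 0.06 at 24 h (adjusted p = 0.0347). In cub it differed by −0.17 ± 0.06 at 2 h, just short of the threshold (adjusted p = 0.0528), and fell by 0.18 ± 0.06 at 24 h (adjusted p = 0.0141). These calls were fragile: the wild-type ones ended in fits restricted to the arrays compared (adjusted p = 0.0974 at 2 h and 0.0874 at 24 h), and without wild-type 0 h replicate 1 (0.137 and 0.183) or replicate 2 (0.0855 and 0.0791). The 2 h call also ended without wild-type 2 h replicate 1 or 2 (0.0515 and 0.144), and the 24 h call without any 1 of the wild-type 24 h arrays (0.0537 to 0.104). The cub 24 h call ended without cub 0 h replicate 2 or 24 h replicate 2. Between the genotypes the largest Adam17 difference at any time was 0.09 ± 0.06, at 2 h (adjusted p = 0.442, 95% interval −0.03 to 0.21).

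Adam10 encodes the related sheddase that cuts Notch, E-cadherin, betacellulin and EGF. In wild type it stood at 9.45, 9.47 and 9.41 at 0 h, at 9.44, 9.47 and 9.45 at 15 min, at 9.35, 9.28 and 9.26 at 2 h, and at 9.62, 9.45 and 9.48 at 24 h. In cub it stood at 9.55, 9.69 and 9.53 at 0 h, at 9.52 and 9.34 at 15 min, at 9.58, 9.51 and 9.47 at 2 h, and at 9.70, 9.56 and 9.64 at 24 h. Cub lay above wild type without overlap at 0 h and 2 h, and the genotypes overlapped at 15 min and 24 h.

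The 2 h difference was 0.22 ± 0.06 (adjusted p = 0.0398). It passed in 5 of 14 alternatives and failed with any 1 of the 6 arrays left out (adjusted p 0.0521 to 0.188). The average over the 4 times, 0.12 ± 0.03, passed (adjusted p = 0.013) in the fit with all arrays and in all 31 alternatives. The marker differences given with the Rhbdf1 average stand beside this one too, and their part was not tested. No wounding change of Adam10 passed in either genotype, the largest being −0.16 ± 0.07 in cub at 15 min (adjusted p = 0.294). At 2 h, beside the Adam10 difference, 8 of 10 fibroblast, 7 of 12 macrophage, 6 of 11 neutrophil, 4 of 8 melanocyte and Schwann cell and 2 of 8 sebaceous gland markers were also higher in cub. So were 1 of 14 keratinocyte and 1 of 8 cartilage markers, with 1 keratinocyte marker lower. The summed fibroblast level was 14.74 to 14.88 in cub and 14.33 to 14.52 in wild type, and the part of these cells in the Adam10 value was not tested.

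**Figure D2:**
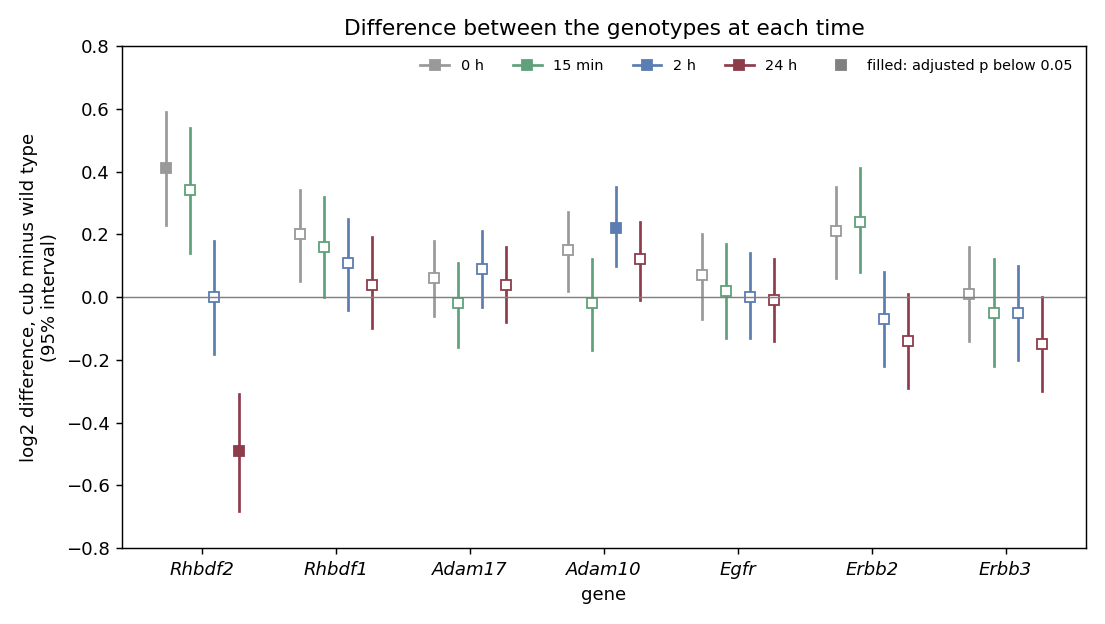
Log2 difference between the genotypes, cub minus wild type (y axis), for each of the 7 genes (x axis) at 4 times. Squares are limma estimates, lines their 95% intervals, and filled squares passed at an adjusted p below 0.05. Filled squares appear for Rhbdf2 at 0 h (0.41) and 24 h (−0.49) and for Adam10 at 2 h (0.22), while Egfr stays within 0.07 of 0.

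Egfr encodes the receptor of EGF, TGF-alpha, HB-EGF and epigen. In wild type its arrays stood at 10.40, 10.31 and 10.14 at 0 h, at 10.24, 10.31 and 10.31 at 15 min, at 10.33, 10.27 and 10.29 at 2 h, and at 10.46, 10.58 and 10.55 at 24 h. In cub they stood at 10.38, 10.33 and 10.34 at 0 h, at 10.38 and 10.24 at 15 min, at 10.37, 10.22 and 10.31 at 2 h, and at 10.58, 10.56 and 10.42 at 24 h. In each genotype every 24 h array lay above every earlier one, and the genotypes overlapped at every time.

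Egfr was the only one of the 7 genes that rose at 24 h and passed in both genotypes. The rise was 0.25 ± 0.06 in wild type (adjusted p = 0.00345), which held in all 14 alternatives, and 0.17 ± 0.06 in cub (adjusted p = 0.0362). The cub call ended in 7 of 14 alternatives, among them quantile normalization (adjusted p = 0.0544), the fit of only the arrays compared (0.0622), and without cub 24 h replicate 1 or 2 (0.137 and 0.111) or any 1 of the 3 cub arrays at 0 h (0.051 to 0.0916). The genotypes differed by 0.07 ± 0.06 at 0 h and by −0.01 ± 0.06 at 24 h, with 95% intervals of −0.07 to 0.20 and −0.14 to 0.12.

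Erbb2 encodes the receptor that binds no ligand of its own and pairs with the other ErbB proteins. In wild type it stood at 9.85, 9.77 and 9.72 at 0 h, at 9.81, 9.69 and 9.75 at 15 min, at 9.84, 9.68 and 9.93 at 2 h, and at 9.30, 9.28 and 9.42 at 24 h. In cub it stood at 10.00, 10.02 and 9.94 at 0 h, at 10.06 and 9.93 at 15 min, at 9.81, 9.73 and 9.70 at 2 h, and at 9.33, 9.14 and 9.11 at 24 h. Cub lay above wild type without overlap at 0 h and 15 min, and the genotypes overlapped at 2 h and 24 h.

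The fall at 24 h was 0.45 ± 0.07 in wild type (1.36-fold, adjusted p = 1.66e-05) and 0.79 ± 0.07 in cub (1.73-fold, adjusted p = 3.97e-09). Both calls held in all 14 alternatives, and in size they ranked 3907 and 1886 among 19938 genes. In cub Erbb2 was already lower at 2 h, with a difference of −0.24 ± 0.07 (adjusted p = 0.0265), where wild type changed by 0.04 ± 0.07 (adjusted p = 0.868). That cub call ended without replicate 1 or 2 at 0 h, and without replicate 2 or 3 at 2 h (adjusted p 0.0731 to 0.098). Beside it, 9 of 11 neutrophil, 6 of 8 melanocyte and Schwann cell, 4 of 10 fibroblast, 2 of 12 macrophage, 2 of 14 keratinocyte and 1 of 8 sebaceous gland markers were higher in cub at 2 h than at 0 h. Lower were 4 of 7 adipocyte, 3 of 11 skeletal muscle and 1 of 14 keratinocyte markers, and the part of these cells was not tested. The wounding change differed between the genotypes by −0.28 ± 0.10 at 2 h (adjusted p = 0.308) and by −0.35 ± 0.10 at 24 h (adjusted p = 0.104), and neither passed. Over 20 alternatives the lowest adjusted p of the 24 h interaction was 0.0522. The genotype differences at 0 h, 0.21 ± 0.07 (adjusted p = 0.0906), and at 15 min, 0.24 ± 0.08 (adjusted p = 0.0779), did not pass either.

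Erbb3 encodes the neuregulin receptor with a weak kinase, which signals in pairs with ErbB2 or EGFR. In wild type it stood at 10.23, 10.16 and 9.95 at 0 h, at 10.18, 10.17 and 10.17 at 15 min, at 10.14, 10.06 and 10.18 at 2 h, and at 9.66, 9.67 and 9.81 at 24 h. In cub it stood at 10.19, 10.10 and 10.08 at 0 h, at 10.24 and 10.01 at 15 min, at 10.13, 10.13 and 9.98 at 2 h, and at 9.59, 9.53 and 9.57 at 24 h. The 24 h arrays of each genotype lay below all earlier arrays, and at 24 h every cub array lay below every wild-type array.

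Erbb3 fell at 24 h by 0.40 ± 0.07 in wild type (adjusted p = 8.33e-05) and by 0.56 ± 0.07 in cub (adjusted p = 9.58e-07), in all 14 alternatives each. The genotype difference at 24 h, −0.15 ± 0.07, did not pass (adjusted p = 0.266), nor did the interaction of −0.16 ± 0.10 (adjusted p = 0.62). Erbb4, the remaining ErbB receptor gene, fell by 0.35 ± 0.10 in wild type at 24 h (adjusted p = 0.00471), and in cub its change was −0.15 ± 0.10 (adjusted p = 0.222). The interaction of 0.2 ± 0.14 did not pass (limma, adjusted p = 0.664), so a genotype difference in this change was not shown. Erbb4 levels were low: the highest group mean was 5.84, in wild type at 2 h, below every array median (6.37 to 6.46).

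**Figure D3:**
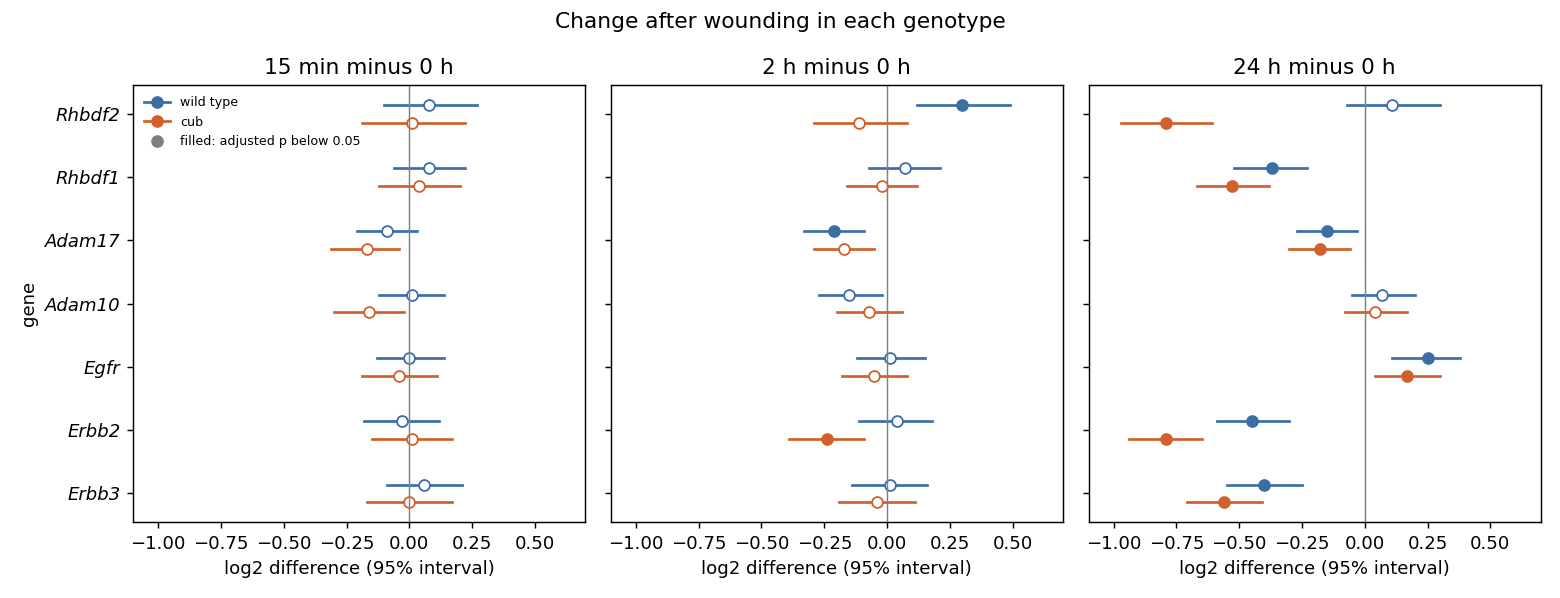
Log2 change of the 7 genes from 0 h to 15 min, 2 h and 24 h (x axis, 1 panel per time) in wild type and cub. Points are limma estimates, lines 95% intervals, and filled points passed at an adjusted p below 0.05. No point is filled at 15 min, 3 are filled at 2 h, and at 24 h Egfr lies above 0 while Rhbdf1, Adam17, Erbb2 and Erbb3 lie below it in both genotypes; Rhbdf2 is below 0 only in cub.

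Cell type markers moved at the same time as these 24 h changes. All 11 neutrophil markers tested were higher at 24 h in both genotypes, and their summed level went from 10.87 to 10.99 in wild type at 0 h to 13.83 to 14.02 at 24 h, and from 10.86 to 11.01 to 14.04 to 14.39 in cub. Macrophage markers were higher for 8 of 12 genes in wild type, and for 6 of 12 in cub with 1 lower. All 11 skeletal muscle markers were lower in both genotypes, as were 7 and 6 of 8 cartilage markers and 6 and 7 of 7 adipocyte markers in wild type and cub. Of 10 fibroblast markers 6 were lower and 2 higher in wild type, and 7 lower and 2 higher in cub. Of 8 sebaceous gland markers 3 were lower in wild type and 5 in cub with none higher, and of 8 melanocyte and Schwann cell markers 1 was higher and 2 lower in each genotype.

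The summed keratinocyte level was 15.89 to 15.93 in wild type at 0 h and 15.96 to 16.05 at 24 h, and in cub it was 15.98 to 16.03 and 16.01 to 16.03. By single genes, 6 of 14 keratinocyte markers were higher and 2 lower in wild type, and 5 higher and 7 lower in cub. The part of these shifts in the changes of Rhbdf1, Adam17, Egfr, Erbb2 and Erbb3 was not tested. Only Krt1, a keratin of the upper epidermis, differed among keratinocyte markers in its 24 h change between the genotypes (−0.71 ± 0.17, adjusted p = 0.0435).

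The order of the 8 groups differed from gene to gene. For Rhbdf2 the highest mean was 9.12 in cub at 15 min and the lowest 8.32 in cub at 24 h, and of the 7 pairs of neighbours in this order only wild type at 0 h and cub at 24 h did not overlap. For Rhbdf1 the means ran from 9.15 in cub at 15 min to 8.54 in wild type at 24 h, with gaps only on either side of wild type at 0 h. Erbb2 ran from 10.00 in cub at 15 min to 9.19 in cub at 24 h, with a gap below cub at 0 h and another above wild type at 24 h. Erbb3 ran from 10.17 in wild type at 15 min to 9.56 in cub at 24 h, with gaps above wild type and above cub at 24 h. Egfr ran from 10.53 in wild type at 24 h to 10.28 in wild type at 0 h, with 1 gap, below cub at 24 h. Adam17 and Adam10 had no gap between neighbours in their order, and their means spanned only 0.27 and 0.34 log2 units.

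The 3 genes most like each of the 7 were found by Pearson's r over the 23 arrays, which share the 24 h step and the genotype, so the values are descriptions. Rhbdf2 was most like 2900026A02Rik (r = 0.916), Hr (0.881), which encodes the corepressor hairless, and Tiam1 (0.879). Hr stood at 10.07 ± 0.08 in cub and 9.83 ± 0.04 in wild type at 0 h and at 9.39 ± 0.12 and 9.60 ± 0.08 at 24 h (SD, n = 3), values that its choice by likeness to Rhbdf2 partly fixes. Rhbdf1 was most like the proprotein convertase gene Pcsk6 (0.98), C2cd2 (0.977) and the ErbB inhibitor gene Lrig1 (0.975). Adam17 was most like Usp40 (0.847), Mrpl24 (0.84) and Rab24 (0.829), and Adam10 was most like Rnpep (0.893), Dpp4 (0.881) and Magt1 (0.856).

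Among the receptors, Egfr was most like C2cd5 (r = 0.917), Cttn (0.909), which encodes the actin regulator cortactin, and Mcmbp (0.906). Erbb2 was most like Pdzd2 (0.969), Adgrl2 (0.969) and Hectd4 (0.968), and Erbb3 most like the sulfate transporter gene Slc26a2 (0.971), Nipal3 (0.969) and Gpld1 (0.969). Between the 7 genes themselves, r was 0.918 for Erbb2 with Erbb3, 0.907 for Rhbdf1 with Erbb2 and 0.799 for Rhbdf2 with Erbb2. It was −0.649 for Egfr with Erbb2 and 0.135 for Rhbdf2 with Adam17. Erbb2 ranked 47 among the genes most like Rhbdf2, and Erbb3 ranked 313 among those most like Erbb2.

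Among 17 genes for iRhom and ADAM17 partners, convertases and inhibitors, 8 rose and 4 fell at 24 h in each genotype, with a median difference of 0.13 in wild type and 0.15 in cub against −0.02 and 0.0 over all genes. Of all genes, 42.8% were called at 24 h in wild type and 46.0% in cub. Krt16, a stress keratin reported to bind iRhom2, rose by 6.10 ± 0.52 in wild type and 6.30 ± 0.52 in cub. Timp1, a metalloproteinase inhibitor, rose by 3.88 ± 0.14 and 3.60 ± 0.14, while its relative Timp4 fell by 1.42 ± 0.15 and fell by 1.12 ± 0.15. The proprotein convertases did not move together. Furin rose by 0.78 ± 0.07 in wild type and 0.94 ± 0.07 in cub. Pcsk5 rose by 0.83 ± 0.08 in wild type, and its change in cub was not among the 4 largest and is not given here. Pcsk6 fell by 0.54 ± 0.06 in wild type and fell by 0.69 ± 0.06 in cub (adjusted p = 3.13e-07 and 6.2e-09). At 2 h Timp1 had risen by 0.90 ± 0.14 in wild type and 1.41 ± 0.14 in cub, and the 2 h level was higher in cub by 0.74 ± 0.14 (adjusted p = 0.00362). At 2 h 2 of the 17 had risen in wild type (7.97% of all genes were called) and 6 in cub (11.9%), with 0 lower in each.

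Between the genotypes, 2 of the 17 were higher in cub at 0 h (Ywhag and Pcsk6), 3 at 2 h (Timp1, Pcsk5 and Ywhah) and 0 at 15 min and 24 h. Of all genes, 5.25% were called at 0 h, 3.45% at 15 min, 4.41% at 2 h and 5.68% at 24 h. None of the 17 passed an interaction. Of the 6 TspanC8 tetraspanins, which guide ADAM10 to the surface and steer its substrates, 1 rose and 3 fell at 24 h in each genotype. Of all genes, 42.8% were called there in wild type and 46.0% in cub. Tspan5 fell by 0.53 ± 0.06 in wild type and fell by 0.54 ± 0.06 in cub, Tspan17 and Tspan15 also fell, and Tspan14 rose by 0.21 ± 0.07 and 0.27 ± 0.07. The median difference of the 6 was −0.17 and −0.19, and no genotype difference among them passed at any time.

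The list of 10 other rhomboid genes includes genes for intramembrane proteases and derlins. Of the 10, 1 rose and 3 fell at 24 h in wild type and 2 rose and 5 fell in cub, with medians of −0.08 and −0.14. Of all genes, 42.8% were called at 24 h in wild type and 46.0% in cub. Rhbdl3 was higher in cub at 0 h by 0.42 ± 0.09 (adjusted p = 0.0106) and fell in cub at 24 h by 0.61 ± 0.09 (adjusted p = 8.38e-06). None of the 10 passed an interaction at 15 min, 2 h or 24 h, so a genotype difference in the Rhbdl3 change was not shown. Parl, a mitochondrial rhomboid protease, fell by 0.31 ± 0.07 at 2 h in wild type and fell by 0.25 ± 0.07 in cub. Of 9 other ADAM genes, 4 rose and 2 fell in wild type at 24 h, and 4 rose and 3 fell in cub, beside the same shares of all genes. Their medians were 0.15 and 0.02. Adam8, a leukocyte ADAM, rose by 2.67 ± 0.13 in wild type and 2.86 ± 0.13 in cub, beside the rise in neutrophil markers, whose part was not tested. Averaged over the 4 times, 5 of these 9 were higher in cub, among them Adam23 by 0.26 ± 0.05 (adjusted p = 0.000794) and Adam33 by 0.22 ± 0.03 (adjusted p = 0.00011). Of all genes, 18.3% were called in that average. None of the 9 passed an interaction.

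Several ligand genes changed by more than any receptor gene, as the plot of receptor and ligand changes shows. Of 11 listed ErbB ligands 10 were tested, and the other was not analysed here. At 24 h 4 rose (Epgn, Hbegf, Tgfa and Nrg1) and 4 fell (Btc, Ereg, Nrg2 and Nrg4) in each genotype, with a median difference of −0.09 in wild type and −0.04 in cub. Of all genes, 42.8% were called at 24 h in wild type and 46.0% in cub. Epgn, which encodes epigen, rose by 5.48 ± 0.16 in wild type and 5.07 ± 0.16 in cub. Hbegf rose by 2.81 ± 0.13 and 3.08 ± 0.13, having risen by 2.12 ± 0.13 and 2.27 ± 0.13 at 2 h. Btc, which encodes betacellulin, an ADAM10 substrate, fell by 1.32 ± 0.19 in wild type and fell by 2.37 ± 0.19 in cub. It started higher in cub, at 9.04 ± 0.11 against 7.73 ± 0.48 at 0 h (SD, n = 3), and stood at 6.67 ± 0.07 and 6.41 ± 0.14 at 24 h.

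At 2 h 4 ligand genes had risen in each genotype, with 1 lower in cub (7.97% of all genes were called in wild type and 11.9% in cub). Between the genotypes 2 of the 10, Btc and Epgn, were higher in cub at 0 h (by 1.31 ± 0.19 and 1.00 ± 0.16), at 15 min (0.95 ± 0.21 and 1.03 ± 0.18) and at 2 h (1.09 ± 0.19 and 1.13 ± 0.16). At 24 h 3 were higher in cub, Nrg1, Epgn and Tgfa. Of all genes, 5.25% were called between the genotypes at 0 h, 3.45% at 15 min, 4.41% at 2 h and 5.68% at 24 h, and 18.3% in the average. Averaged over the 4 times 5 were higher in cub and 1 lower, led by Epgn (0.94 ± 0.08, adjusted p = 3.23e-07), Btc (0.90 ± 0.10, adjusted p = 2.45e-06) and Ereg, which encodes epiregulin (0.51 ± 0.11, adjusted p = 0.00218). None of the 10 passed an interaction at 15 min, 2 h or 24 h.

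**Figure D4:**
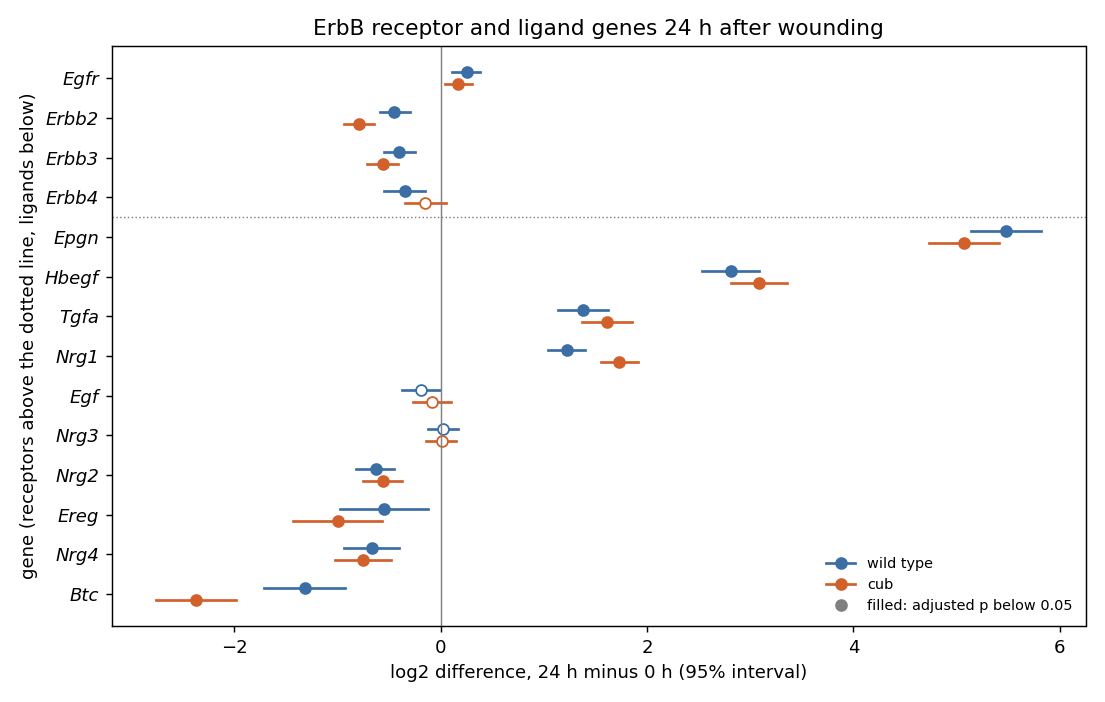
Log2 change from 0 h to 24 h (x axis) of 4 ErbB receptor genes and 10 ligand genes (y axis) in wild type and cub. Points are limma estimates, lines 95% intervals, and filled points passed at an adjusted p below 0.05. The ligand changes reach from −2.37 (Btc in cub) to 5.48 (Epgn in wild type), while the receptor changes lie between −0.79 and 0.25.

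Among 24 tested substrates of ADAM17 that are no ErbB ligands, 8 rose and 9 fell at 24 h in wild type and 10 rose and 8 fell in cub, with medians of −0.08 and 0.01. Of all genes, 42.8% were called at 24 h in wild type and 46.0% in cub. The rises were led by the TNF receptor gene Tnfrsf1b (1.87 ± 0.09 in wild type and 1.95 ± 0.09 in cub), the adhesion gene Icam1 (1.64 ± 0.09 and 1.67 ± 0.09) and Tnf itself (1.54 ± 0.11 and 1.70 ± 0.11). One substrate, the receptor phosphatase gene Ptprf, passed the 24 h interaction (−0.42 ± 0.09, adjusted p = 0.0275). At 24 h 3 of the 24 were higher in cub (Icam1 and Met among them) and 3 lower, of which Mertk, a receptor for dying cells, differed by −0.36 ± 0.08 (adjusted p = 0.0139). Of all genes, 5.68% were called between the genotypes at this time.

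Of 32 tested adaptors and feedback genes of ErbB signalling, 12 rose and 11 fell at 24 h in wild type and 13 rose and 11 fell in cub, with medians of 0.08 and 0.09. Of all genes, 42.8% were called at 24 h in wild type and 46.0% in cub. Socs3, a cytokine-induced inhibitor, rose by 2.64 ± 0.14 at 2 h in wild type and 2.82 ± 0.14 in cub. Errfi1, which encodes the EGFR inhibitor MIG6, rose by 1.02 ± 0.06 and 0.82 ± 0.06 at 2 h, and was higher in cub at 0 h (0.29 ± 0.06, adjusted p = 0.00668) and at 24 h (0.30 ± 0.06, adjusted p = 0.00467). Lrig3, of the LRIG family of receptor regulators, fell at 24 h by 0.86 ± 0.07 in wild type and by 1.41 ± 0.07 in cub, and was the 1 gene of this list that passed the 24 h interaction (−0.55 ± 0.10, adjusted p = 0.0117). Lrig1 and Spry1, both inhibitors of receptor signalling, were higher in cub at 0 h by 0.22 ± 0.06 and 0.35 ± 0.09 (limma, adjusted p = 0.0492 and 0.0295). Lrig1 did not pass between the genotypes at 15 min, 2 h or 24 h (adjusted p = 0.0672, 0.386 and 0.905).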

How the data were processed

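The authors deposited log2 values for 23 arrays; the submitters' processing notes name RMA and version 1.1 of Affymetrix Expression Console. Summarization level, annotation release and build are not given in the sources used here. RMA shrinks differences between low or saturated probes, so fold changes can be understated. Of 35556 rows, 21789 carried 1 gene symbol, 1621 several (left out, among them 1 annotated to both Erbb2 and Sympk) and 12146 none. The row with the highest mean was taken for 999 genes with more than 1, leaving 19938; each of the 7 genes had 1 row of its own. Gene names were checked against RefSeq (GRCm38.p6), where 21698 rows matched.

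A single limma model (version 3.58.1, R 4.3.3) gave each group its mean over all 23 arrays, with 15 residual and 5.61 prior degrees of freedom, and 14 comparisons were tested two-sided. Benjamini-Hochberg adjustment ran over all genes of a comparison, at 0.05. The authors' own analysis used another package and was not run. No 2 arrays shared over 99% equal values. The code was tested on simulated data. Alternatives were median-centring, quantile normalization, a filter on the highest group mean (6 or more, 13741 genes), every named row, only the arrays compared, a replicate block, trend and robust moderation, array weights, and each array left out in turn.

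The 7 genes are always named; per list, at most the 4 largest differences past the threshold are named in a comparison, and 3 most alike genes per member. For Erbb4 and the ligand genes all 24 h changes are given. The Pcsk6 change at 24 h, the wild-type Furin change at 24 h and single marker genes were chosen after their values were seen. The genes, pathway and marker lists were chosen with earlier results of these data known.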

Additional observations from a re-analysis of the deposited data

Results flagged for a closer look

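The Rhbdf2 response to wounding differed between the genotypes at 24 h. The change in cub was lower than that in wild type by −0.90 log2 units (SE 0.12, limma, adjusted p = 0.000676), a difference that was itself tested. Each of the 3 cub arrays at 24 h (8.45, 8.30 and 8.20) lay below each cub array at 0 h, whereas the wild-type arrays at 24 h (8.57, 8.85 and 9.01) overlapped those at 0 h. The wild-type group at 24 h had the widest spread of the 8 groups for this gene. Leaving out each array in turn gave interactions from −1.02 to −0.80, with adjusted p values up to 0.00325.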

How the results depend on the processing

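Of the 20 differences of the 7 genes that passed, 12 passed in every alternative, and of the 78 others 71 stayed short of the threshold in every alternative; no called difference changed sign. The number of the 7 genes past the threshold moved as follows. At 0 h cub against wild type gave 1, but 2 with quantile normalization and 3 with array weights. At 15 min it gave 0, but 1 with median-centring, 2 with quantile normalization and 1 with trend and robust moderation. At 2 h it gave 1, but 0 with median-centring, quantile normalization or only the arrays compared, and 0 to 0 with 1 array left out. At 24 h it gave 1, but 0 with only the arrays compared. Wild type at 2 h against 0 h gave 2, but 1 with only the arrays compared and 0 to 1 with 1 array left out. Cub at 2 h against 0 h gave 1, but 2 with median-centring, quantile normalization, the filter, trend and robust moderation or array weights, and 0 to 1 with 1 array left out. Wild type at 24 h against 0 h gave 5, but 4 with only the arrays compared, which ended the call of Adam17 (adjusted p = 0.0874), and 4 to 5 with 1 array left out. Cub at 24 h against 0 h gave 6, but 5 with quantile normalization or only the arrays compared, each of which ended the call of Egfr (adjusted p = 0.0544 and 0.0622), and 4 to 6 with 1 array left out. The 2 h interaction gave 0, but 1 with array weights. Fewer arrays leave less precision, and for the other settings the cause was not tested.

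With the replicate number as a block, wild type at 2 h kept 1 of its 2 calls, Adam17, since the adjusted p of Rhbdf2 became 0.051. The labels do not say whether arrays of the same number shared a day or batch. Same-numbered arrays deviated from their group means with median correlations of −0.0526, −0.023 and −0.028. Single pairs ran from −0.447 to 0.41, and 5 of 23 arrays correlated best with their own number. These values cannot exclude a shared batch.

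Over all genes, the counts of calls ranged over the alternatives from 322 to 1804 at 0 h, 29 to 2025 at 15 min, 329 to 1590 at 2 h and 258 to 1364 at 24 h between the genotypes. They ranged from 983 to 2712 (wild type) and 1716 to 4112 (cub) for the 2 h change, and from 74 to 437 for the 24 h interaction, against 200 in the fit reported.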
